A study of Homo sapiens with 16 samples.

Results

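Transcript levels in Caco-2 cells that shared medium with HepG2 cells were compared between co-cultures given free fatty acids (FFA) and control co-cultures. Every gene whose mean over the 4 libraries reached 10 CPM (reads scaled so that every library has an equal total) was included. These were 5516 of the 60623 genes listed (9.10%), and 16769 genes had a read in any of the 4. Caco-2 is a colorectal adenocarcinoma line used as a model of the gut epithelium, and HepG2 is a hepatocellular line used as a model of the liver. The lines grew in separate chambers of a microfluidic chip that were joined by circulating medium. In the labels, FFA was a mixture of palmitic and oleic acid (1 mM in total, at a ratio of 1 to 2) in medium with fatty acid-free BSA, and cells were taken after 1 day. The study's methods and its main expression figures describe a longer treatment, while a supplementary figure gives expression after 1 day. The paper does not say which of these holds these libraries, so that the duration behind every change given here is unresolved. The controls are labelled only as not treated with FFA, and their medium at sampling is not given. Each group held 2 libraries. Caco-2 mono-cultures without and with FFA, and the HepG2 cells of the co-cultures without and with FFA, also 2 libraries each, served to compare the change; the series held 16 libraries in 8 groups.

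The control libraries held 504792 and 353871 reads and the FFA libraries 974654 and 811671 reads, so that 1 read stood for 1.98 and 2.83 CPM in the controls and for 1.03 and 1.23 CPM with FFA. Depth therefore moved with the treatment. The 5516 genes held 96.9% to 97.4% of the reads, 4992 of them were protein-coding, and 312 had a mean between 10 and 11 CPM while 296 genes just below the limit had a mean between 9 and 10 CPM. The 19 Caco-2 marker genes summed to 2821 to 3295 CPM in the co-culture libraries and to 422 to 625 CPM in HepG2 libraries. The extraction label names primary myoblasts, but 16 fibroblast, blood and muscle markers together reached only 50.3 to 57 CPM. The 20 HepG2 markers summed to 4558 and 4671 CPM in the controls and 4518 and 4747 CPM with FFA, so that their sum did not separate the groups. They summed to 3658 to 4272 CPM in the Caco-2 mono-cultures and to 24252 to 49784 CPM in HepG2 libraries.

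As background, the heat shock response is a set of chaperone genes that the transcription factor HSF1 switches on when unfolded proteins accumulate. HSP70 proteins hold unfolded chains, J-domain proteins such as DNAJB1 deliver the chains and start the ATPase cycle, and HSP90 with its co-chaperones completes the folding of kinases and receptors. HSF1 binds inverted repeats of the unit nGAAn, called heat shock elements. In enterocytes, fatty acids are bound by FABP1, esterified, and stored in droplets or secreted in lipoproteins.

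With FFA, 9 of the 5516 genes (0.163%) differed at an adjusted p under 0.05 by limma with Benjamini-Hochberg adjustment, and all 9 were lower. They were 5 heat shock genes (DNAJB1, HSPA8, HSPA1A, HSPA1B and HSP90AA1), the Wnt inhibitor DKK1, the sterol synthesis enzyme MSMO1, the cell cycle kinase CDK1 and the translation elongation factor EEF1A1. No gene was higher at that threshold (0.0%). At an unadjusted p under 0.05 there were 305 genes (5.53%), of which 209 were lower (3.79%) and 96 higher (1.74%). With median-ratio rescaling the split was 159 lower and 114 higher, and with quantile normalization 214 lower and 158 higher. Both FFA libraries lay below both controls for 1214 genes (22.0%) and above both for 772 genes (14.0%), together 36.0%, and the mean change was below 0 for 3081 genes (55.9%). The median log2 change of all genes was -0.05. In bulk libraries such as these, fewer cells of a kind and less RNA per cell cannot be told apart.

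Because heat shock genes led the result, the 250 bases before a start of each of the 5 are printed from RefSeq (GRCh38.p14), 5′ to 3′ on the strand of the gene. Capitals mark GAANNTTC or TTCNNGAA, both inverted arrangements of a pair of heat shock units, which read the same on both strands. The windows are chr19:14518398-14518647 (minus strand) for DNAJB1, chr6:31815293-31815542 (plus strand) for HSPA1A, chr6:31827488-31827737 (plus strand) for HSPA1B, chr11:123062137-123062386 (minus strand) for HSPA8 and chr14:102087045-102087294 (minus strand) for HSP90AA1.
DNAJB1: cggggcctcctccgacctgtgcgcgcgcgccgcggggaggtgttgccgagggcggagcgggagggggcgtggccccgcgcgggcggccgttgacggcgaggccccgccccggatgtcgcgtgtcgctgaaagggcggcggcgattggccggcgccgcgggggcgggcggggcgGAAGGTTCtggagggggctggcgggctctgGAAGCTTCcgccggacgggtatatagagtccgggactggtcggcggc
HSPA1A: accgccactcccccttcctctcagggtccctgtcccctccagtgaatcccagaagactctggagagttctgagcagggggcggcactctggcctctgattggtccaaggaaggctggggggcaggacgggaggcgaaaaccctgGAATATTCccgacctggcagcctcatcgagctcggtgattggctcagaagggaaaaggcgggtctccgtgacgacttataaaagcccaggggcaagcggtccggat
HSPA1B: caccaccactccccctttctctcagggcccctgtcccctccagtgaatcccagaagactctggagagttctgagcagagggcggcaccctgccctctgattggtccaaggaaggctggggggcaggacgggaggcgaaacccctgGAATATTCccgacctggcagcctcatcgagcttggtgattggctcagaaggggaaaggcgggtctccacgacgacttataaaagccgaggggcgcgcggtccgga
HSPA8: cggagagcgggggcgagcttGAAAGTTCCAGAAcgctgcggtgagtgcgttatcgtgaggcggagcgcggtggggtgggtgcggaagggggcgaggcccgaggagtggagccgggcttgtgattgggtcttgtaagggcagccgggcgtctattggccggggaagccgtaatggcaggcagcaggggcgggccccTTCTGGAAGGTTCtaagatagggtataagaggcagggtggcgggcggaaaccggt
HSP90AA1: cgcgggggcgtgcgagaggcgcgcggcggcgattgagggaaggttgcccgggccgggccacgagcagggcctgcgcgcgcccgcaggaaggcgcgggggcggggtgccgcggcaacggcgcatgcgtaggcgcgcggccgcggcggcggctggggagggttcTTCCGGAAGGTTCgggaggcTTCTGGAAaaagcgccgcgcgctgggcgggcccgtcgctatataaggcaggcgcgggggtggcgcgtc

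DNAJB1 held matches that began 77 and 47 bases before the start, HSPA1A a match 106 bases before and HSPA1B a match 105 bases before. In HSPA8 the matches overlapped to give runs of 3 units (GAANNTTC and TTCNNGAA sharing their middle letters, in either order) from 230 and from 55 bases before the start, and HSP90AA1 held such a run from 88 bases before, followed by a further pair from 68 bases before. For DNAJB1 and HSP90AA1 the other RefSeq windows held no match. A pair of units stood in 5 of the 9 genes that passed. They were the 5 heat shock genes that prompted the search, so this share is not separate evidence, and the others held no pair. The pair stood in 484 of the 4033 tested genes matched to a promoter by symbol (12%) and in 4067 of all 35116 promoters (11.6%). Among genes lower at an unadjusted p under 0.05 it stood in 20 of 162 (12.3%). Runs of 3 units stood in 155 of all promoters (0.441%) and in 24 tested genes, whose median log2 change was 0.00. Of those 24, HSPA8, HSP90AA1, HSP90AB1 and HSPD1 were lower at an unadjusted p under 0.05 and 2 genes were higher. These matches describe letters only, and binding was not measured.

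DNAJB1 (ENSG00000132002, chr19:14514769-14560391, minus strand, GRCh38), a J-domain partner of HSP70, was at 311 and 427 CPM in the controls and at 42.1 and 137 CPM with FFA. The groups did not overlap, and FFA replicate 1 was the lowest library. Its log2 change was -2.25 ± 0.29 (SE, n = 2 against 2; adjusted p = 7.65e-05, limma), the largest of the 9. In mono-culture it was at 550.1 and 416 CPM in the controls and at 556 and 574 CPM with FFA, so the drop was not seen there.

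HSPA8 (ENSG00000109971, chr11:123057489-123063230, minus strand), the constitutive HSP70, was at 1137 and 1209.5 CPM in the controls and at 634 and 658 CPM with FFA. Replicates lay close together in both groups, and the log2 change was -0.86 ± 0.13 (SE; adjusted p = 8.91e-04, limma). HSPA1A (ENSG00000204389, chr6:31815543-31817946, plus strand), a stress-inducible HSP70, was at 200.1 and 277 CPM in the controls and at 44.1 and 117 CPM with FFA, a log2 change of -1.70 ± 0.27 (SE; adjusted p = 0.00154). Its neighbour HSPA1B (ENSG00000204388, chr6:31827738-31830254, plus strand) encodes the same protein. It was at 166 and 164 CPM in the controls and at 17.4 and 76.4 CPM with FFA, a log2 change of -2.14 ± 0.35 (SE; adjusted p = 0.00191). Because these genes are near-identical copies, the division of reads between them is uncertain. Their sum was 366 and 441 CPM in the controls and 61.6 and 193 CPM with FFA, against 397 to 450.1 CPM in the 4 mono-culture libraries. FFA replicate 1 was the lower FFA library for DNAJB1, HSPA1A and HSPA1B alike.

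HSP90AA1 (ENSG00000080824, chr14:102080742-102139699, minus strand), the stress-inducible cytosolic HSP90, was at 1254 and 1314 CPM in the controls and at 762 and 851 CPM with FFA. The groups did not overlap, and the log2 change was -0.67 ± 0.12 (SE; adjusted p = 0.00425, limma). Its constitutive counterpart HSP90AB1 was at 1809 and 1568 CPM in the controls and at 1287 and 1257 CPM with FFA and did not pass (adjusted p = 0.216). STIP1, which links HSP70 to HSP90, was at 149 and 141 CPM in the controls and at 90.3 and 66.5 CPM with FFA (adjusted p = 0.152). Both lay below their controls in each FFA library. The HSP70 exchange factor HSPH1 was at 67.4 and 42.4 CPM in the controls and at 23.6 and 39.4 CPM with FFA (adjusted p = 0.694).

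**Figure D1:**
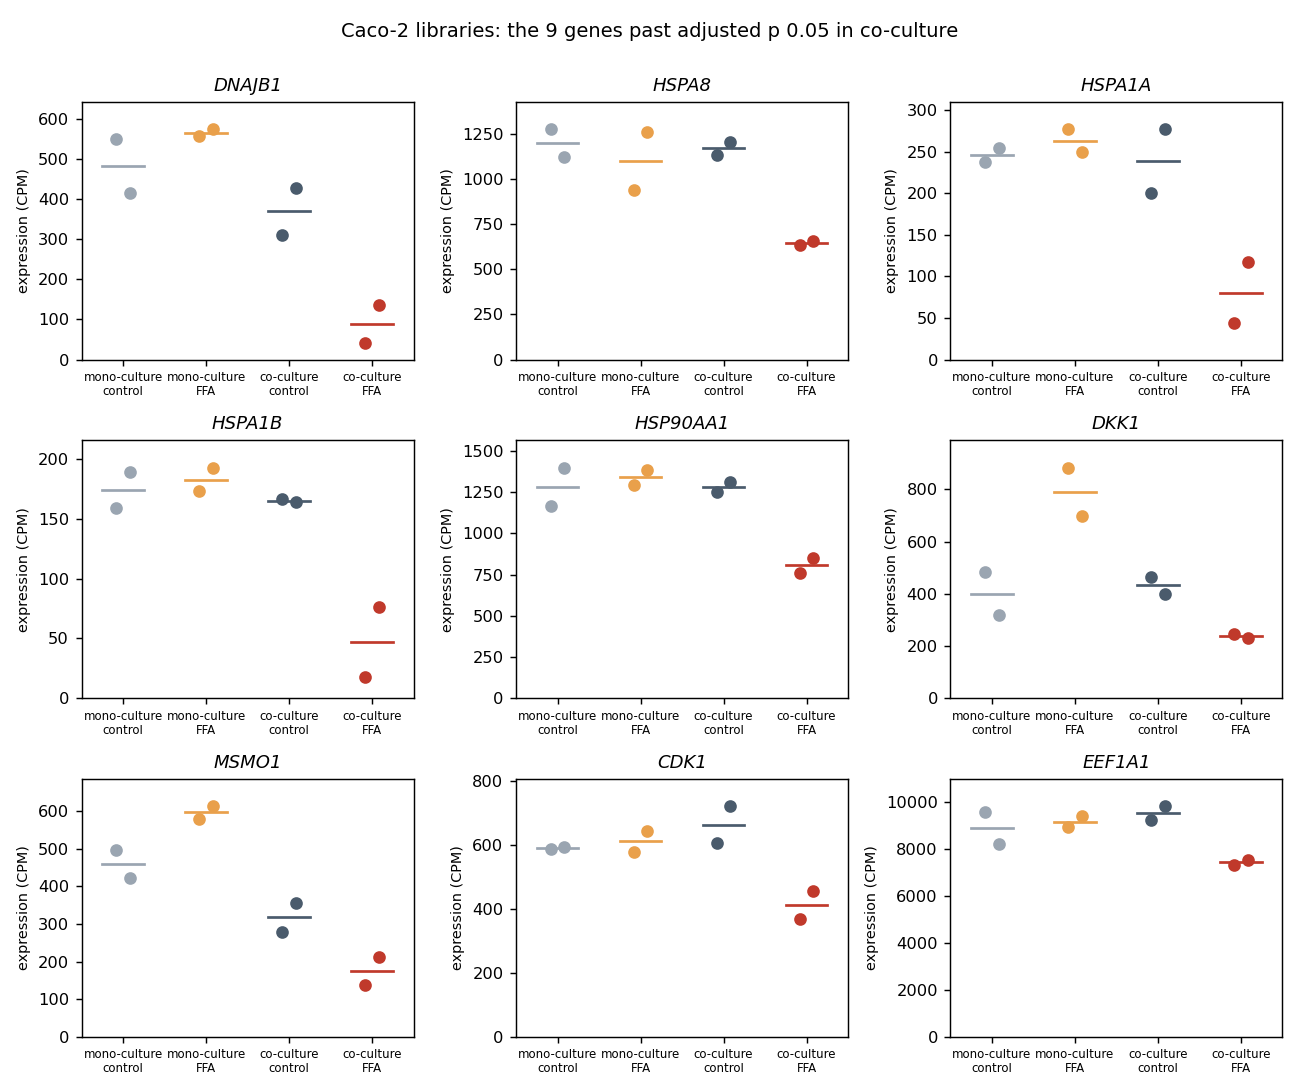
Expression in CPM (vertical axis, from 0) of the 9 genes past the adjusted threshold in the 8 Caco-2 libraries, by group (horizontal axis). Points are libraries and lines are group means; in every panel both co-culture FFA libraries lie below both co-culture controls, for HSPA8 at 634 and 658 against 1137 and 1209.5 CPM.

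The other 4 genes that passed belong to other processes. DKK1 (ENSG00000107984, chr10:52314281-52318042, plus strand), a secreted inhibitor of Wnt signalling, was at 466 and 398 CPM in the controls and at 247 and 230.4 CPM with FFA, a log2 change of -0.85 ± 0.17 (SE; adjusted p = 0.0311, limma). MSMO1 (ENSG00000052802, chr4:165327667-165343164, plus strand), which removes methyl groups from sterol precursors, was at 279 and 356 CPM in the controls and at 139 and 212 CPM with FFA, a log2 change of -0.88 ± 0.18 (SE; adjusted p = 0.0311). CDK1 (ENSG00000170312, chr10:60778331-60794852, plus strand), which drives entry into mitosis, was at 606 and 721 CPM in the controls and at 367 and 455 CPM with FFA, a log2 change of -0.69 ± 0.14 (SE; adjusted p = 0.0311). In none of these genes did the groups overlap. EEF1A1 (ENSG00000156508, chr6:73489308-73525587, minus strand), which brings aminoacyl-tRNA to the ribosome, was at 9222 and 9811 CPM in the controls and at 7303 and 7536 CPM with FFA, a log2 change of -0.36 ± 0.08 (SE; adjusted p = 0.0311). EEF1A1 has many pseudogene copies, so its reads may have been divided.

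The number of genes that passed changed when single libraries were left out. Such a fit leaves 1 library in a group, which is assumed to vary like the libraries of the other 3 groups. Without control replicate 2 only DNAJB1 passed (1 gene), and without FFA replicate 1 only DNAJB1 and HSPA8 (2 genes). Leaving out control replicate 1 gave 12 genes (7 lower and 5 higher) and leaving out FFA replicate 2 gave 12 lower genes, each time with 7 of the 9. With all libraries thinned to 353871 reads, DNAJB1, HSPA8 and HSP90AA1 passed. By edgeR on the recovered reads 5 genes passed (DNAJB1, HSPA8, HSPA1A, HSPA1B and DKK1), by DESeq2 1 gene (HSPA8), and by limma with a constant prior variance 0 genes, with 262 at an unadjusted p under 0.05. The log2 change of each of the 9 was below 0 in all 18 alternatives. That sign was partly fixed in advance. With both FFA libraries below both controls, leaving out 1 library or changing the pseudocount could not turn it. A changed filter or prior left each log2 change as it was.

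**Figure D2:**
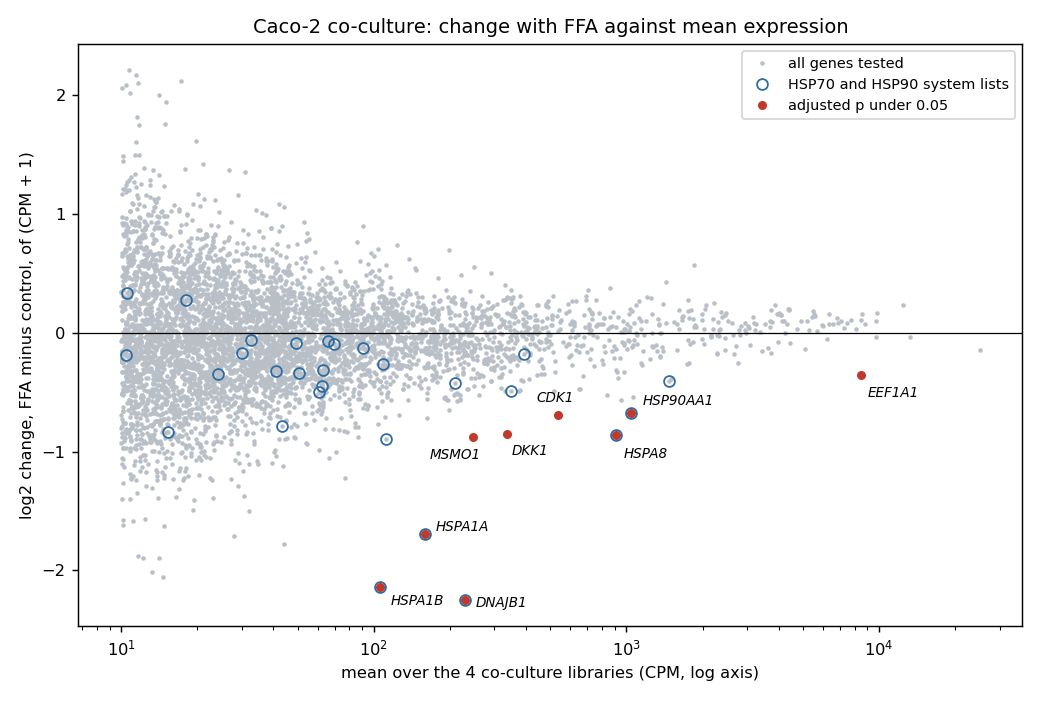
Log2 change of (CPM + 1) with FFA in co-cultured Caco-2 cells (vertical axis) against the mean of the 4 libraries in CPM (horizontal, log axis) for 5516 genes (points). Red points passed the adjusted threshold and open circles are the HSP70 and HSP90 lists; DNAJB1, HSPA1B and HSPA1A lie at -2.25, -2.14 and -1.70.

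In the cytosolic HSP70 list, 4 of 19 genes tested were lower at the adjusted threshold, against 0.163% of all genes. At an unadjusted p under 0.05, 6 were lower and 0 higher, against 3.79% and 1.74% of all genes. Both FFA libraries lay below both controls for 10 of the 19 and above both for 1, against 22.0% and 14.0% of all genes, and the median log2 change was -0.19 against -0.05 for all genes. In the HSP90 list, 1 of 9 genes was lower at the adjusted threshold and 4 were lower unadjusted, with 7 of 9 below both controls and a median of -0.42. The HSP70 list summed to 3302 and 3569 CPM in the controls and 2012 and 2186 CPM with FFA, and the HSP90 list to 3792 and 3572 CPM in the controls and 2589 and 2572 CPM with FFA. In the 4 mono-culture libraries these sums ran over 3413 to 3905 CPM and 3519 to 3990.1 CPM. The sums and counts include the genes that passed on their own, so they are not separate evidence for the family. Both lists were chosen with earlier results of these data known.

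**Figure D3:**
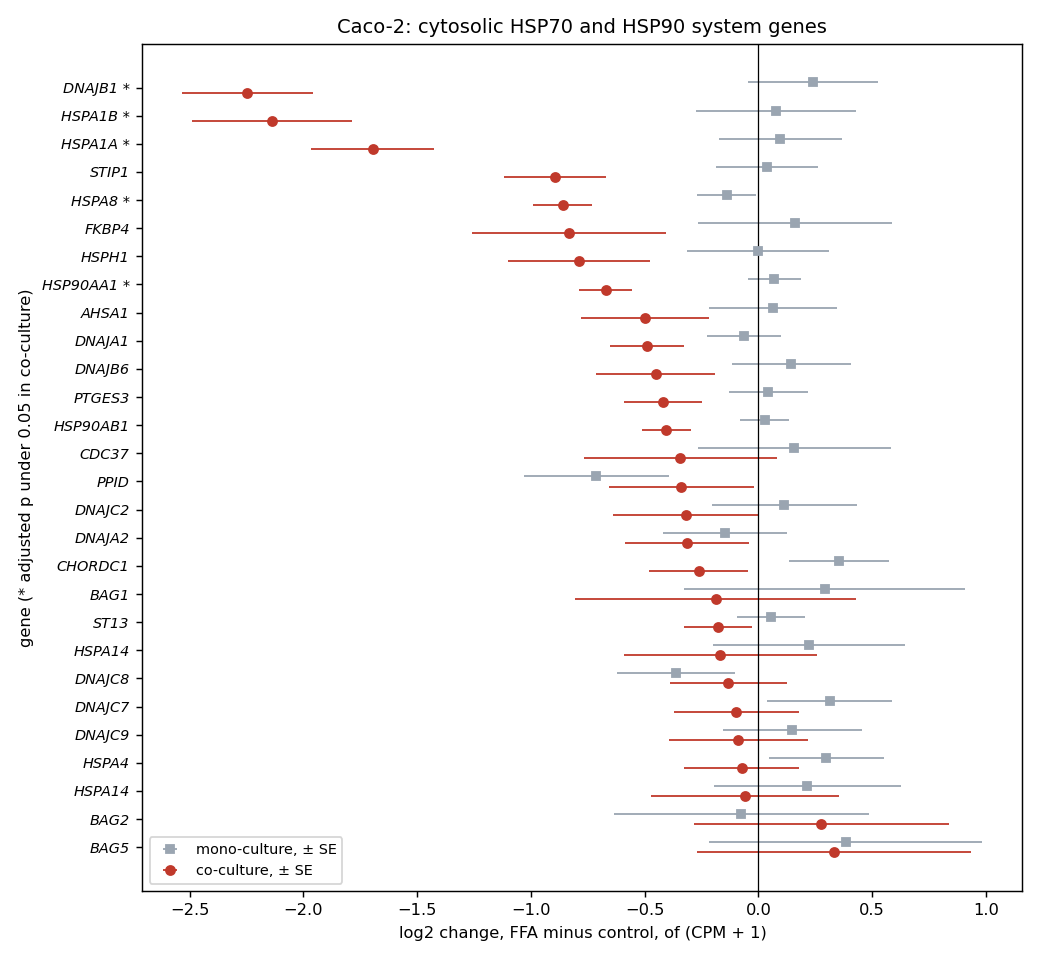
Log2 change of (CPM + 1) with FFA (horizontal axis) of the 19 HSP70 and 9 HSP90 list genes tested, in co-culture (circles) and mono-culture (squares), each ± SE. Asterisks mark genes past the adjusted threshold in co-culture, and the inducible genes DNAJB1, HSPA1B and HSPA1A stand lowest, at -2.25 to -1.70; HSPA14 appears once for each of its gene identifiers.

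The remaining chaperone lists had no gene past the adjusted threshold. Of all genes, 3.79% were lower and 1.74% higher at an unadjusted p under 0.05. Of 8 mitochondrial chaperones 4 were lower unadjusted, with a median of -0.42, and HSPD1, the mitochondrial HSP60, was at 1109 and 995 CPM in the controls and at 881 and 734 CPM with FFA (adjusted p = 0.412, limma). Its partner HSPE1 was at 1294 and 1187 against 1115 and 969.6 CPM. Of 14 genes of the TRiC chaperonin, which folds actin and tubulin, and of prefoldin, 4 were lower unadjusted, with a median of -0.26. Among 20 chaperones of the endoplasmic reticulum, 2 were lower unadjusted, with a median of -0.23. HSPA5, the HSP70 of that compartment, was at 262 and 263 CPM in the controls and at 176 and 177 CPM with FFA (log2 change -0.56, adjusted p = 0.400), while HSP90B1 overlapped between groups at 584 and 495 against 522 and 444 CPM. Of 3 small heat shock proteins 1 was lower unadjusted, HSPB1 at 83.2 and 67.8 against 56.4 and 43.1 CPM (adjusted p = 0.788).

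The integrated stress response list holds genes induced through ATF4 when translation initiation is held back. None of its 15 genes tested passed the adjusted threshold. At an unadjusted p under 0.05, 7 were lower and 0 higher, against 3.79% and 1.74% of all genes. Below both controls lay 11, against 22.0% of all genes. The median log2 change was -0.46 and the list summed to 1809 and 1972 CPM in the controls and 1242 and 1501 CPM with FFA. ATF4 was at 361 and 379 CPM in the controls and at 252 and 283 CPM with FFA (adjusted p = 0.508, limma). HERPUD1, which acts in the removal of misfolded proteins, was at 93.1 and 122 CPM in the controls and at 71.8 and 51.7 CPM with FFA (adjusted p = 0.400). Libraries overlapped for DDIT4, an inhibitor of mTORC1, at 75.3 and 130 against 21.6 and 80.1 CPM. Of 21 genes of degradation and translocation at the endoplasmic reticulum 2 were higher and 1 lower unadjusted.

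In cholesterol synthesis and uptake 1 of 24 genes passed (MSMO1), and 6 were lower and 0 higher unadjusted (3.79% and 1.74% of all genes). Below both controls lay 12 (22.0% of all genes), and the median was -0.36. DHCR7, the last enzyme of cholesterol synthesis, was at 95.1 and 84.8 CPM in the controls and at 38.0 and 48.0 CPM with FFA (log2 change -1.05, adjusted p = 0.239, limma). INSIG1, which holds the sterol sensor in the endoplasmic reticulum, was at 81.2 and 147 CPM in the controls and at 54.4 and 64.1 CPM with FFA (adjusted p = 0.400). Libraries overlapped for the synthase HMGCS1, at 145 and 195 against 113 and 149 CPM. Of 12 genes of fatty acid synthesis and desaturation 1 was lower unadjusted, the desaturase SCD, at 45.6 and 65.0 CPM in the controls and at 30.8 and 27.1 CPM with FFA (adjusted p = 0.578).

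Genes that handle fatty acids had no member past the adjusted threshold. FABP1, the cytosolic fatty acid carrier, was at 1547 and 1419 CPM in the controls and at 2313 and 2105 CPM with FFA, a log2 change of 0.57 ± 0.14 (SE; adjusted p = 0.119, limma). It lay above both controls, and it passed when the 4 co-culture libraries were fitted alone (adjusted p = 0.000752) and when only genes of at least 50 CPM were tested (adjusted p = 0.0414). FABP1 did not pass with edgeR, DESeq2, median-ratio rescaling, quantile normalization, thinned reads or no filter. APOA4, a chylomicron apolipoprotein, had 3 and 2 reads in the controls and 32 and 20 with FFA (5.94 and 5.65 against 32.8 and 24.6 CPM). Its pooled ratio was 5.00, with a 95% exact interval of 2.01 to 16.04 that covers counting error only (adjusted p = 0.239, limma). With both controls below 10 CPM, APOA4 met the filter only through the FFA libraries, so the ratio is no support for a rise. APOC3, a triglyceride-rich lipoprotein component, was at 1129 and 1108 against 1469 and 1276 CPM (adjusted p = 0.941). In the uptake and lipoprotein list 2 of 14 genes were higher and 0 lower unadjusted, against 1.74% higher among all genes.

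The lipid droplet list had 0 of 12 genes at an unadjusted p under 0.05 and a median of 0.02. PLIN2, which coats lipid droplets, was at 65.4 and 59.4 CPM in the controls and at 82.1 and 67.8 CPM with FFA, a log2 change of 0.26 ± 0.30 (SE; adjusted p = 0.959, limma). Of 21 genes of fatty acid oxidation 1 was lower unadjusted, against 3.79% of all genes, with a median of -0.08. CPT1A, which admits fatty acids to mitochondria, was at 13.9 and 25.4 against 14.4 and 20.9 CPM, and its libraries overlapped.

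The 12 higher genes of smallest p without overlap between groups were, beside FABP1 and APOA4, PPIL3, AKR1C2, SPG7, FTL, VMP1, RBP4, TRIP11, SON, RABIF and STAU2, and none passed. SPG7, a mitochondrial protease, was at 63.4 and 62.2 CPM in the controls and at 139 and 99.8 CPM with FFA (adjusted p = 0.400, limma), and the aldo-keto reductase AKR1C2 was at 101 and 82.0 against 127 and 184 CPM (adjusted p = 0.397). RBP4, the retinol carrier, was at 759 and 743 against 1059 and 896 CPM (adjusted p = 0.504). PPIL3, TRIP11, RABIF and STAU2 had 1 to 5 reads in each control library, with pooled ratios of 3.85, 3.24, 3.12 and 3.85 and lower 95% bounds of 1.52, 1.53, 1.31 and 1.36. Their control means were below 10 CPM, so they met the filter only through the FFA libraries. That choice favours ratios above 1, and the ratios and bounds are no support for a rise. Among lower genes close to the threshold was RGS2, a regulator of G-protein signalling, at 63.4 and 70.6 against 11.3 and 30.8 CPM (log2 change -1.78, adjusted p = 0.0775).

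In the mitosis list 1 of 41 genes passed (CDK1), and 5 were lower and 0 higher unadjusted (3.79% and 1.74% of all genes), with a median of -0.16. KPNA2, a nuclear import factor, was at 229.8 and 254 CPM in the controls and at 156 and 152 CPM with FFA (adjusted p = 0.279, limma). The proliferation genes TOP2A, at 224 and 195 against 215 and 179.9 CPM, and MKI67, at 13.9 and 11.3 against 16.4 and 2.46 CPM, overlapped between groups. Of 37 translation factors 1 passed (EEF1A1), 9 were lower and 0 higher unadjusted, and 17 lay below both controls (22.0% of all genes), with a median of -0.17. EIF4B, which assists ribosome recruitment, was at 273 and 243 against 188 and 171 CPM (adjusted p = 0.578). Of 79 cytosolic ribosomal proteins 0 passed, 5 were higher and 1 lower unadjusted, and 34 lay above both controls, against 14.0% of all genes, with a median of 0.07.

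Of 30 keratin and cytoskeleton genes 0 passed, 7 were lower and 1 higher unadjusted (3.79% and 1.74% of all genes), with a median of -0.13. Gamma-actin ACTG1 was at 1024 and 1249 against 765 and 763 CPM (adjusted p = 0.119, limma), alpha-tubulin TUBA1B at 1014 and 966 against 752 and 631 CPM (adjusted p = 0.152) and KRT8 at 1686 and 1709.6 against 1212 and 1384 CPM (adjusted p = 0.242). All of these lay below both controls, and ACTG1 and TUBA1B share long stretches with related genes. Of 18 junction genes 1 was lower unadjusted, against 3.79% of all genes, and 9 lay below both controls, against 22.0%, with a median of -0.27. The tight junction protein OCLN was at 29.7 and 56.5 CPM in the controls and at 19.5 and 19.7 CPM with FFA (adjusted p = 0.532). VIL1, which bundles actin in microvilli, was at 51.5 and 45.2 against 68.7 and 48.0 CPM.

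The study's methods describe the removal of reads that mapped to the mitochondrial genome, yet mitochondrial genes hold reads in these libraries. Whether their values are what was left after such a step is not known. Of the 13 mRNAs of the mitochondrial genome 0 passed and 1 was higher unadjusted, MT-CO2 at 1347 and 1082 against 2003 and 1323 CPM, where libraries overlapped. MT-CO3 was at 642 and 610.4 against 806 and 712 CPM, MT-CO1 at 1353 and 1441 against 1475 and 1486 CPM and MT-ND4 at 1141 and 1065 against 1075 and 1106 CPM. The list median was 0.15, and the sum was 8118 and 7198 CPM in the controls and 9648 and 7823 CPM with FFA. Of 75 nuclear genes of the respiratory chain 3 were higher and 1 lower unadjusted, against 1.74% and 3.79% of all genes, and 24 lay above both controls, against 14.0%, with a median of 0.12. Of 8 genes tested in the metallothionein and zinc list 2 were higher unadjusted. These were MT1F at 25.8 and 11.3 against 41.0 and 38.2 CPM and the copper chaperone ATOX1 at 194 and 172 against 301 and 218 CPM. MT2A was at 178 and 237 against 178 and 251 CPM and MT1X at 121 and 203 against 116 and 147 CPM.

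Other lists had no gene past the adjusted threshold. Their unadjusted counts stand beside shares of 3.79% lower and 1.74% higher among all genes. Of 29 genes of the NRF2 response 4 were higher and 2 lower unadjusted, and of 35 proteasome genes 3 were lower. Of 21 DNA replication genes 1 was higher, and 1 gene was lower in each of the lists of glycolysis (19 tested), immediate-early genes (15 tested) and intestinal identity (12 tested). Neither direction held a gene at an unadjusted p under 0.05 among 11 apoptosis, 9 inflammation and 19 nuclear lncRNA and host genes.

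**Figure D4:**
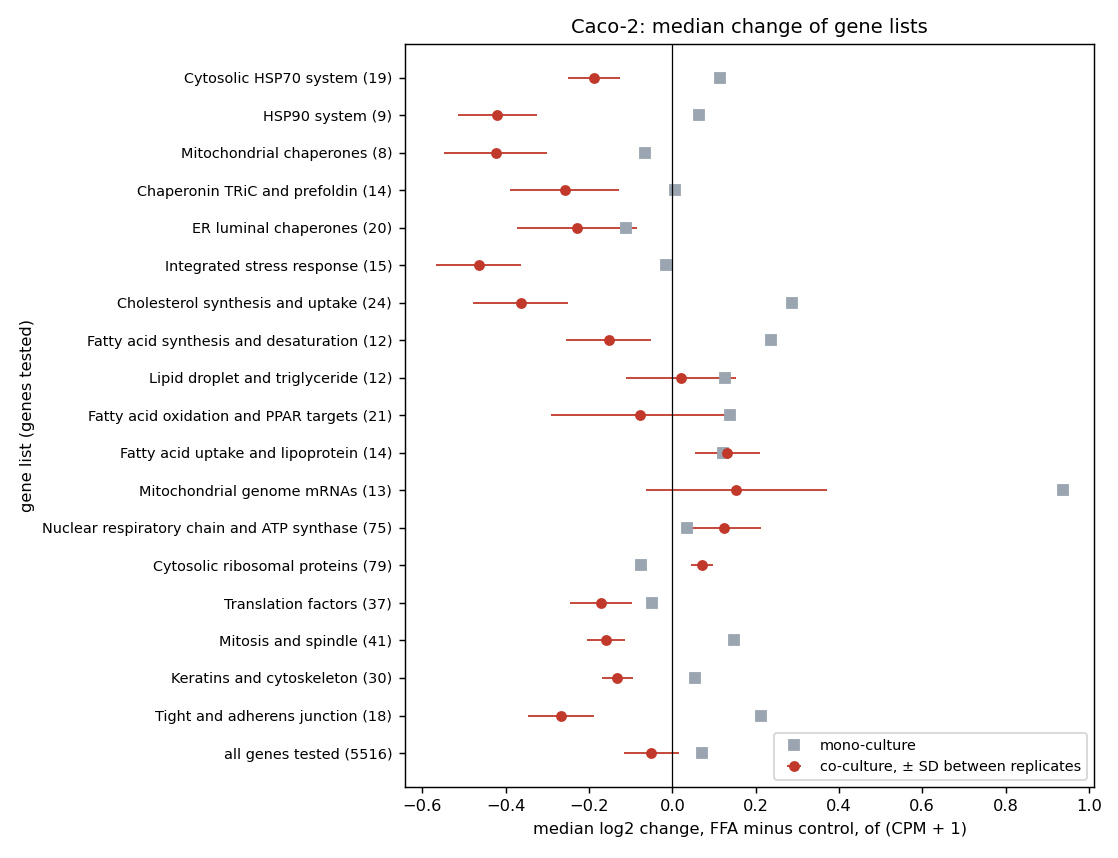
Median log2 change of (CPM + 1) with FFA (horizontal axis) of 18 gene lists and of all genes, with the number tested in brackets; circles are co-culture ± SD between replicates and squares are mono-culture. Co-culture medians run from -0.46 for the integrated stress response to 0.15 for the mitochondrial genome mRNAs.

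Whether the change with FFA differed between co-culture and mono-culture was tested by the interaction in the same fit. It called 6 genes (0.109%), all with a lower change in co-culture, and at an unadjusted p under 0.05 it gave 288 lower (5.22%) and 82 higher (1.49%). The median difference over all genes was -0.14, and with median-ratio rescaling, which removes that shift, 1 gene passed (DKK1). DKK1 was at 482 and 317 CPM in the controls and at 883 and 697 CPM with FFA in mono-culture, a change of 1.00 there against -0.85 in co-culture and a difference of -1.85 (adjusted p = 1.69e-04, limma). The mono-culture groups did not overlap, with FFA the higher, opposite to co-culture. For DNAJB1 the difference was -2.49 (adjusted p = 0.00219), and for MSMO1, at 498 and 422 against 581 and 614 CPM in mono-culture, -1.26 (adjusted p = 0.0331).

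A further pair of these genes was mitochondrial. MT-ND4, a subunit of respiratory complex I, was at 635 and 608 CPM in the controls and at 1274 and 1114 CPM with FFA in mono-culture, a change of 0.94 against -0.02 in co-culture and a difference of -0.95 (adjusted p = 0.00536, limma). The mono-culture controls were the low group, and the mono-culture FFA libraries reached the level of the co-cultures. MT-RNR2, the large mitochondrial ribosomal RNA, had a log2 change of 0.41 in mono-culture and of -0.15 in co-culture, a difference of -0.55 (adjusted p = 9.04e-04). Nuclear copies of mitochondrial sequence could have taken part of its reads. The mitochondrial mRNAs summed to 3758 and 3124 CPM in the controls and 7013 and 5438 CPM with FFA in mono-culture. For the other heat shock genes the differences missed the threshold, with adjusted p of 0.0504 for HSPA1A, 0.0734 for HSPA1B, 0.0734 for HSP90AA1 and 0.197 for HSPA8.

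**Figure D5:**
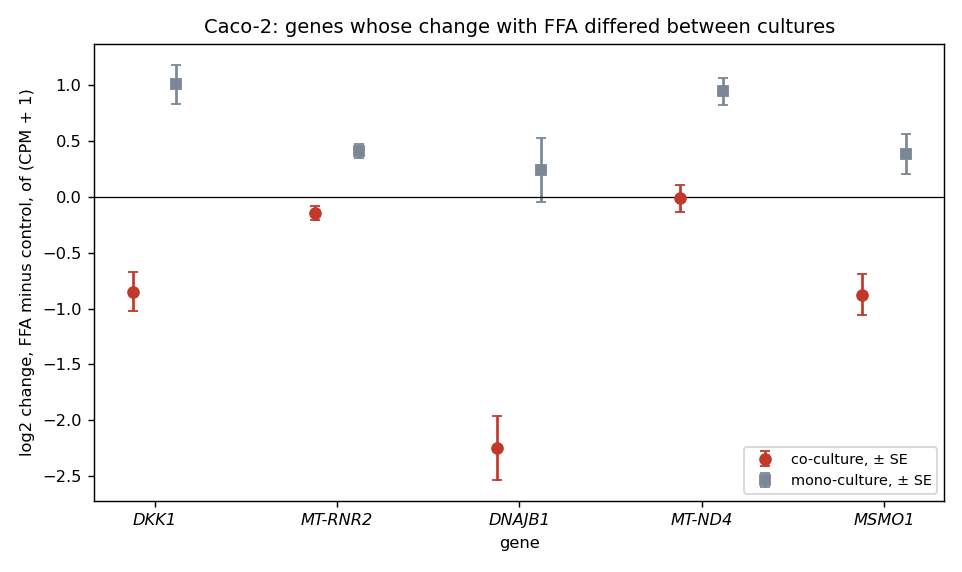
Log2 change of (CPM + 1) with FFA (vertical axis) in co-culture (circles) and mono-culture (squares), each ± SE, for 5 of the 6 genes whose changes differed. DNAJB1 lies at -2.25 against 0.24 and DKK1 at -0.85 against 1.00.

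In the HepG2 cells of the co-culture the FFA libraries held only 147096 and 49634 reads. DNAJB1, HSPA1A, HSPA1B, DKK1 and CDK1 had 3 reads or fewer in at least 1 of them, so that the lines are not compared for these genes. HSPA8 was at 281 and 226 CPM in the controls and at 381 and 564 CPM with FFA, higher with FFA where Caco-2 was lower, and the change in Caco-2 minus that in HepG2 was -1.73 ± 0.29 (SE; adjusted p = 0.0148, limma over 16 libraries, which called 4.7% of genes). MSMO1 was at 77.2 and 96.2 CPM in the controls and at 163 and 302 CPM with FFA in HepG2, a difference of -2.23 ± 0.44 (SE; adjusted p = 0.0200). EEF1A1 was at 5100.5 and 5591 CPM in the controls and at 7811 and 8341 CPM with FFA, a difference of -0.95 ± 0.12 (SE, adjusted p = 0.00439, limma). Cytosolic ribosomal proteins held 25.8% and 25.7% of reads in the HepG2 controls and 20.6% and 18.7% with FFA. In Caco-2 co-culture they held 28.2% and 28.3% against 28.9% and 30.2%. The lines were not compared after rescaling, so the share of such a shift in these differences was not tested. HSP90AA1, at 570.2 and 470.4 against 509.9 and 504 CPM, did not pass (difference -0.64 ± 0.18, SE; adjusted p = 0.0597). It passed with a pseudocount of 0.1 (adjusted p = 0.0488, limma) but not with a pseudocount of 5 (adjusted p = 0.0683) or with voom (adjusted p = 0.0769). Without 1 co-culture FFA library the difference for HSP90AA1 ran from -0.72 to -0.56. Leaving out Caco-2 FFA replicate 2 lost HSPA8 (adjusted p = 0.0513) and MSMO1 (adjusted p = 0.0513), leaving out Caco-2 FFA replicate 1 lost MSMO1 (adjusted p = 0.0672), and EEF1A1 passed without any 1 of the 4 co-culture FFA libraries.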

How the data were processed

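Total RNA was reverse transcribed from the poly(A) tail, PCR-barcoded and read on an Oxford Nanopore device. The submitters' processing notes name minimap2 2.22, and the build is GRCh38. The study's methods describe STAR and RSEM for mRNA-seq without saying which reads they were used for. The values deposited by the authors are named TPM, but 99.2% to 100% of the values of a library were whole multiples of 1 step (within 0.05 read), so these deposited values were taken to be CPM, not scaled by length, and whole reads were recovered. The tests had been planned for TPM and were kept. The labels do not say whether replicates were separate cultures, so p-values may measure technical spread only, although the study states independent experiments. Replicates differed by more than counting noise (chi-square per degree of freedom 1.37 in the controls and 2.25 with FFA). PCR reads carry no molecular identifiers, so intervals cover counting error only.

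A model of 4 group means was fitted to log2(CPM + 1) of the 8 Caco-2 libraries with limma 3.58.1 in R 4.3.3 (trended prior variance, two-sided, Benjamini-Hochberg over 5516 genes, threshold 0.05). The prior carried 24.3 degrees of freedom against 4 residual ones, so that each SE rests mostly on genes of similar level. The added 1 understates changes of low genes. A joint model over 16 libraries compared the lines. Alternatives changed the pseudocount, filter, scaling, prior and threshold, thinned the reads, added the replicate block, left out each co-culture library, or used edgeR 4.0.16, DESeq2 1.42.0 or voom on recovered reads, and the scripts were tested on simulated data. Positions came from GENCODE 44, which matched 60295 of 60623 identifiers, and promoters from RefSeq.

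Genes named were all past the threshold, the 12 higher and 12 lower genes of smallest p without overlap, a selection of the 3 members of smallest p in each list, a preset set, and the 3 genes of smallest p for the interaction. Of the preset set, MT1G was not tested. Some genes that met these rules are not reported here. The members and lists were chosen with earlier results of these data known.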

Additional observations from a re-analysis of the deposited data

Results flagged for a closer look

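The change with FFA differed between co-culture and mono-culture of Caco-2 cells for 6 genes, 5 of them described here, by the interaction in limma at an adjusted p under 0.05. The log2 change in co-culture minus that in mono-culture was -2.49 for DNAJB1, -1.85 for DKK1, -1.26 for MSMO1, -0.95 for MT-ND4 and -0.55 for MT-RNR2. Of 17 alternatives, DKK1 passed under 16, MT-ND4 under 13, DNAJB1 and MT-RNR2 under 12 each and MSMO1 under 7. The study's methods describe the removal of mitochondrial reads, and whether the 2 mitochondrial values are a remainder after it is not known.

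In co-culture the change differed between Caco-2 and HepG2 cells for 3 of the 4 genes that passed in Caco-2 and had more than 3 reads in every HepG2 co-culture library. These genes were chosen because they passed in the Caco-2 contrast that enters the difference. Over all 5516 genes the lines differed for 259 (4.7%), and for 7 to 1880 without 1 FFA library. The log2 change in Caco-2 minus that in HepG2 was -1.73 for HSPA8, -2.23 for MSMO1 and -0.95 for EEF1A1. HepG2 FFA replicate 2 had 28 reads of HSPA8, 15 of MSMO1 and 414 of EEF1A1. No rescaled fit compared the lines.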

How the results depend on the processing

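The log2 change of each of the 9 genes stayed below 0 under all 18 alternatives, and DNAJB1 and HSPA8 passed under 16, HSPA1A and HSPA1B under 13, HSP90AA1 under 12, DKK1 and MSMO1 under 8, CDK1 under 7 and EEF1A1 under 6. Many of these alternatives could not turn the sign, because both FFA libraries lay below both controls for each gene. This holds for leaving out 1 library and for the pseudocount. A changed filter, the constant prior, the 4 libraries alone and the replicate block left each log2 change as it was. The count of 9, all lower, became 5 lower with a pseudocount of 0.1, without a filter and with edgeR, 4 lower with median-ratio rescaling, 3 lower after thinning, 1 lower with DESeq2 (93 genes unadjusted) and 0 with a constant prior variance. It became 14 with a filter of 50 CPM, with the 4 libraries alone and with voom, an alternative chosen after seeing the data, each time with 1 higher gene, FABP1. Leaving out 1 library, where the lone library of a group is assumed to vary like those of the other groups, gave 1 to 12 genes, 1 to 12 lower and 0 to 5 higher; the 5, chosen after their values were seen and found without control replicate 1, were PLEKHA1, GTF3C3, THAP3, SETDB1 and PPIL3. Without control replicate 1 the lone control was the shallowest Caco-2 library (353871 reads). PPIL3 had 1 read in it, so its change rests on that read. The log2 changes of the 5 genes ran from 2.61 to 4.26 there. By an unadjusted p below 0.05 and a fold of 1.2 or more for this contrast in limma there were 286 genes, 81 higher and 205 lower. The study set such limits on an analysis of variance across conditions, which was not run here.

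For the interaction, the count of 6 became 10 (all lower) with a filter of 50 CPM, 17 (all lower) with voom, 3 with quantile normalization and after thinning, 2 with edgeR, 1 with median-ratio rescaling and with DESeq2, 0 with a constant prior variance (340 genes unadjusted), 4 to 11 without 1 library (4 to 11 lower, 0 to 1 higher) and 365 by the unadjusted threshold (77 higher and 288 lower). The count without control replicate 1 was 9, and without FFA replicate 2 it was 11. For the difference between lines, 259 genes became 422 with a pseudocount of 0.1, 634 with voom and 7 to 1880 without 1 FFA library, where 7 was without Caco-2 FFA replicate 2, 65 without Caco-2 FFA replicate 1, 502 without HepG2 FFA replicate 2 and 1880 without HepG2 FFA replicate 1; these alternatives were chosen after seeing the data.

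The labels do not say that equal replicate numbers mark a shared culture, and the correlation of deviations between equally numbered co-culture control and FFA libraries was 0.089 over all genes and 0.29 over 1162 genes of at least 100 CPM. Over all 6 pairs of Caco-2 groups it ran from -0.0075 to 0.089 and from 0.00081 to 0.29. With the replicate block 20 genes passed (19 lower and 1 higher, FABP1, adjusted p = 0.00385), all 9 among them, and 22 for the interaction (21 lower and 1 higher).

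Of 342 alternative values of 19 list medians, 42 moved by more than the replicate spread. The constant prior, the 4 libraries alone and the replicate block leave log2 changes as they were, so their medians could not move. The spread came from the same replicates that were left out in turn. The share that moved therefore does not measure stability. With a filter of 50 CPM the median was -0.45 for HSP70, -0.29 for fatty acid synthesis, 0.25 for lipid droplets and -0.17 for junctions. After thinning the median was -0.22 for cholesterol synthesis, -0.26 for fatty acid synthesis, -0.17 for lipid droplets, -0.22 for mitosis and -0.15 for junctions. With quantile normalization the median was -0.10 for mitosis, 0.023 for ribosomal proteins and -0.079 for keratins. With median-ratio rescaling the median was -0.11 for mitosis, 0.12 for ribosomal proteins and -0.081 for keratins. With edgeR the median was 0.12 for ribosomal proteins and -0.086 for keratins. With DESeq2 the median was -0.12 for HSP70, 0.13 for ribosomal proteins and -0.081 for keratins. Without 1 library the medians ran from -0.11 to 0.025 for all genes, -0.31 to -0.17 for HSP70, -0.64 to -0.30 for HSP90, -0.48 to -0.25 for mitochondrial chaperones, -0.43 to -0.17 for TRiC and prefoldin, -0.35 to -0.060 for endoplasmic reticulum chaperones, -0.60 to -0.36 for the integrated stress response, -0.24 to 0.00080 for fatty acid synthesis, -0.033 to 0.27 for lipid droplets, 0.053 to 0.23 for fatty acid uptake, -0.30 to -0.13 for mitosis, 0.044 to 0.093 for ribosomal proteins, -0.26 to -0.081 for translation factors, -0.40 to -0.18 for junctions and -0.19 to -0.069 for keratins.

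Some genes that did not pass changed sign. Without 1 library their log2 changes ran from -0.53 to 0.31 for CPT1A (turned without control replicate 2 and FFA replicate 1), -0.21 to 0.29 for MT2A (turned without control replicate 1 and FFA replicate 2), -0.64 to 0.11 for MT1X (turned without control replicate 2), -0.065 to 0.034 for MT-ND4 (turned without control replicate 1 and FFA replicate 1), -0.21 to 0.044 for TOP2A (turned without control replicate 1 and FFA replicate 2), -1.97 to 0.37 for MKI67 (turned without FFA replicate 2), -0.0066 to 0.50 for VIL1 (turned without FFA replicate 1) and -0.82 to 0.38 for ALB (turned without FFA replicate 1). Values of the other sign were also -0.049 for MT2A after thinning, 0.0066 for MT-ND4 with quantile normalization, 0.036 for MT-ND4 with median-ratio rescaling, 0.030 for MT-ND4 with edgeR, 0.036 for MT-ND4 with DESeq2 and -0.0092 for VIL1 after thinning. The cause was not tested.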
